A study of Drosophila melanogaster with 2 samples.

Results

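Oxidative phosphorylation subunit genes were taken by symbol from the Ensembl annotation of Drosophila melanogaster: protein-coding genes whose names begin with ND-, Sdh, UQCR-, COX and a digit, or ATPsyn. The rule gave 88 of the 13945 protein-coding genes on the 6 main chromosome arms. They were 63 subunits without a paralog suffix, called somatic here, 24 paralogs whose symbol ends in L or in L and a digit, and 1 assembly factor, Sdhaf3. ND-MNLL was kept among the somatic subunits, since its last letter is part of a subunit name. By complex the members were 40 for complex I, 8 for complex II, 9 for complex III, 16 for complex IV and 15 for complex V. Subunits with other names, such as blw and RFeSP, are not members and are described as a separate list.

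The data were chromatin immunoprecipitation followed by sequencing (ChIP-seq) with an antibody to GFP, in whole pupae of mixed sex labelled 24 hours, from a stable transgenic line with GFP at the C terminus of CG1663. There was 1 group of 2 biological replicates, numbered 1 and 3, and a single control file served every peak call. The sources used here do not give the promoter that drives the fusion or its copy number, and no untagged line was analysed here. The deposited lists were 30000 peaks for replicate 1, 30000 for replicate 3, 30000 for both pooled and 9657 thresholded by the irreproducible discovery rate (IDR), which compares how replicates rank their peaks. A gene was counted as having a summit when the highest point of a peak was at most 500 bp from an annotated start of one of its transcripts. The depth is unknown, because peak lists hold no reads. The intervals below are 95% exact binomial intervals that cover counting error only.

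Oxidative phosphorylation couples the oxidation of nutrients in mitochondria to the making of ATP. Complex I (NADH dehydrogenase), complex II (succinate dehydrogenase), complex III (ubiquinol-cytochrome c reductase) and complex IV (cytochrome c oxidase) pass electrons to oxygen, and complex V (ATP synthase) uses the proton gradient that complexes I, III and IV build. Most subunits are encoded in the nucleus and must be made together with the few encoded in mitochondrial DNA. In Drosophila many of these subunits have duplicate genes that are used in the testis, and several of those carry an L in their names.

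Every IDR-thresholded site at these genes lay near the starts of a subunit gene and of a neighbour transcribed the other way, in DNA with a median GC content of 24.8%. Shown are the 101 bases around the IDR-thresholded summit of 6 members, those of the 12 with such a summit whose window overlapped no annotated gene. They come from the RefSeq copy of Release 6 (dm6) and are on the plus strand. Capitals mark the nuclear respiratory gene element, a word reported upstream of many mitochondrial genes in flies, and windows with no capitals held none of the 9 motifs searched.
ND-42, chr3R:22027538-22027638: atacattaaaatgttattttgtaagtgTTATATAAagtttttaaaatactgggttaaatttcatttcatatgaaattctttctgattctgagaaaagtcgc
ND-SGDH, chr3L:12138632-12138732: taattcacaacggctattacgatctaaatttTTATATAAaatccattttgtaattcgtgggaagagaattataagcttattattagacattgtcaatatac
ND-51, chr2L:6062799-6062899: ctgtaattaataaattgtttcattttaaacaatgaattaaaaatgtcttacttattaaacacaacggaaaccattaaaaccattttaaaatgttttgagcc
ND-MNLL, chrX:7893849-7893949: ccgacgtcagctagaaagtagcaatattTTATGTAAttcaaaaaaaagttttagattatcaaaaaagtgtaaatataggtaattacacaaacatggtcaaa
COX7B, chr3L:17425307-17425407: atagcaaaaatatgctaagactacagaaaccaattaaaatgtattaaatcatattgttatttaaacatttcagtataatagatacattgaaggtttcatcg
SdhC, chr3R:11209993-11210093: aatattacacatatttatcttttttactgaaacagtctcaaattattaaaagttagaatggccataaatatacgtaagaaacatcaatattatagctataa

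In the IDR-thresholded list 12 of the 88 members had a summit, 13.6% (interval 7.25 to 22.6), and all 12 were somatic subunits. The share over all protein-coding genes was 21.5%, inside the interval of the members. The list of replicate 1 gave 19 of 88 members, 21.6% (13.5 to 31.6), against 31.3% of all protein-coding genes. The list of replicate 3 gave 51 of 88, 58.0% (47.0 to 68.4), against 45.1%. The members thus lay below the background in replicate 1, with the background inside their interval, and above it in replicate 3. In the pooled list 27 of 88 members had a summit, 30.7% (21.3 to 41.4), against 36.3%.

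Among somatic subunits alone, 12 of 63 had an IDR-thresholded summit, 19.0% (10.2 to 30.9). Replicate 1 gave 17 of 63, 27.0% (16.6 to 39.7), and replicate 3 gave 49 of 63, 77.8% (65.5 to 87.3). The intervals of the IDR-thresholded list and of replicate 1 held the background share, and that of replicate 3 lay wholly above it. No summit in any of the 4 lists was found for 13 somatic subunits. They were ND-13A, ND-19, ND-49, ND-B12, ND-B14, ND-B14.5B, ND-B14.7, ND-B15 and ND-MLRQ of complex I, UQCR-Q of complex III, COX8 of complex IV, and ATPsynB and ATPsyndelta of complex V. Sdhaf3 had none either. Over all protein-coding genes, 7081 of 13945 had no summit in any list, 50.8%, so an empty gene was less frequent among the somatic subunits. Somatic subunits with 1 annotated start had a replicate 3 summit in 24 of 31 cases, 77.4% (58.9 to 90.4), against 36.8% of protein-coding genes with 1 start. Those with more starts had one in 25 of 32 cases, 78.1% (60.0 to 90.7), against 68.0% of protein-coding genes with more starts, a share inside the interval.

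**Figure D1:**
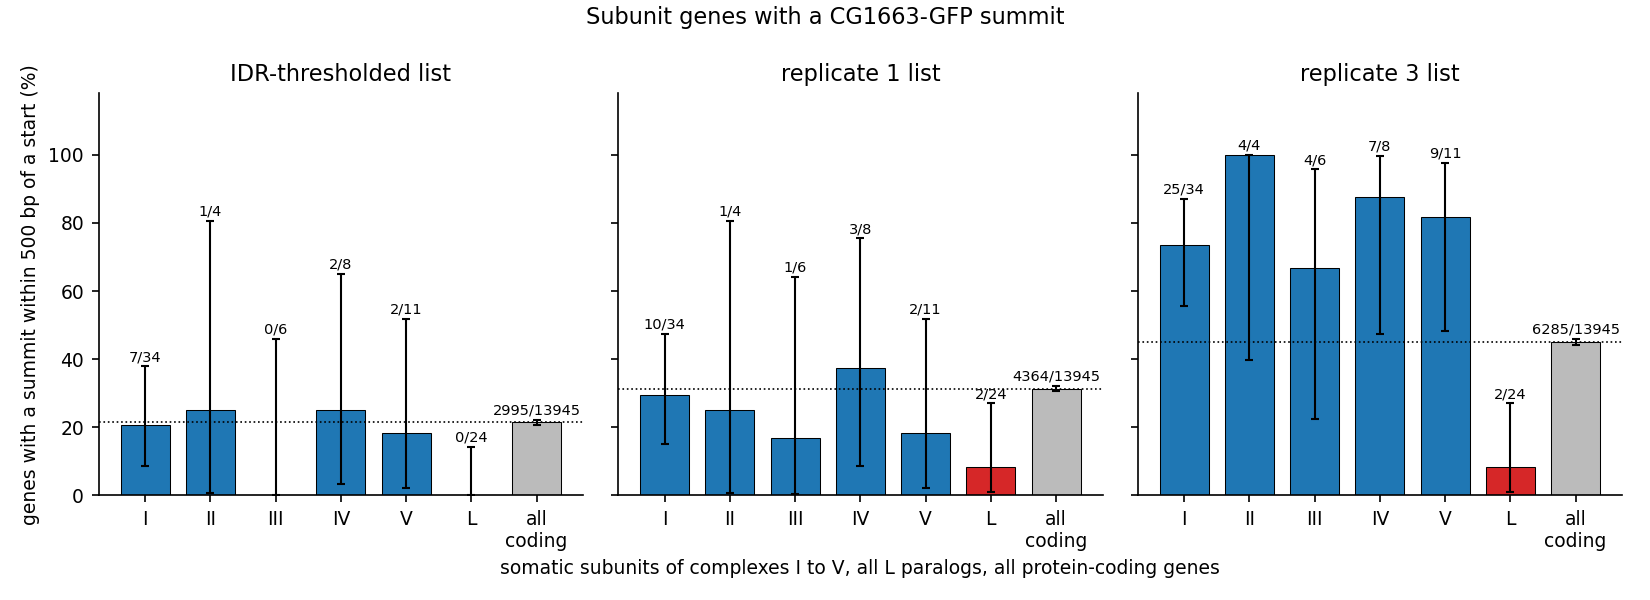
Percentage of genes with a summit within 500 bp of a start, for the somatic subunits of each complex (blue), the 24 L paralogs (red) and all protein-coding genes (grey, dotted line), in the IDR-thresholded list and in each replicate. Bars are shares, whiskers are 95% exact intervals and the fractions above them are genes with a summit over all genes. In replicate 3 every complex stood above the dotted line and the L paralogs stood below it at 2 of 24.

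The 5 complexes did not separate from one another, as their intervals overlapped in each list. The somatic subunits with an IDR-thresholded summit were 7 of 34 for complex I (20.6%, 8.70 to 37.9), 1 of 4 for complex II, 0 of 6 for complex III, 2 of 8 for complex IV and 2 of 11 for complex V (18.2%, 2.28 to 51.8). The 0 of 6 of complex III still allows a share of up to 45.9% by its interval. In replicate 1 the counts were 10 of 34, 1 of 4, 1 of 6, 3 of 8 and 2 of 11 in the same order. In replicate 3 they were 25 of 34 (73.5%, 55.6 to 87.1), 4 of 4, 4 of 6, 7 of 8 and 9 of 11 (81.8%, 48.2 to 97.7).

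Complex I held the strongest sites. The gene with the highest signal of all members was ND-ASHI, an accessory subunit of the membrane arm, at X:6678906-6679659 in the coordinates of dm6. Its IDR-thresholded peak had a signal of 2783 and rank 263 of 9657, and the signal was 1569 in replicate 1 (rank 301) and 1216 in replicate 3 (rank 230). The replicates placed this summit within 16 bp and 1 bp of the IDR-thresholded one. The summit lay 241 bp upstream of ND-ASHI and 281 bp upstream of the nearest start of Fum1, the fumarase of the citric acid cycle, within the Fum1 transcription unit that begins at a more distant start.

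ND-MWFE, a small accessory subunit of the membrane arm, followed with an IDR signal of 1275 (rank 1219, 2R:13158280-13158699). Its signals were 876 in replicate 1 and 407 in replicate 3, with summits 7 bp and 17 bp away from the IDR-thresholded one. The site lay 162 bp upstream of ND-MWFE and 59 bp upstream of the nearest start of TppII, a tripeptidyl peptidase. The neighbour was thus the closer gene. ND-42, an accessory subunit of complex I, had a signal of 757 (rank 2382, 3R:22027286-22027783), with 449 in replicate 1 and 314 in replicate 3. Its summit lay 121 bp upstream of ND-42 and 108 bp upstream of Cchl, the lyase that attaches haem to cytochrome c. Both replicates held these 3 sites among their 2417 strongest peaks.

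The other complex I genes had weaker sites. ND-SGDH, an accessory subunit of the membrane arm, had an IDR signal of 536 (3L:12138461-12138868), with 349 in replicate 1 and 189 in replicate 3. ND-51, the flavoprotein that binds NADH, had a signal of 419 (2L:6062678-6062952), with 234 in replicate 1 and 191 in replicate 3, and lay opposite CG13994. ND-MNLL, a small accessory subunit, had a signal of 316 (X:7893687-7894110), with 135 in replicate 1 and 160 in replicate 3. Its locus is shared with CG45089, which is annotated with the same starts on the same strand, and p115, a Golgi tether, lies on the other side. ND-24, the partner subunit of ND-51, had a signal of 450 (X:17632040-17632327), with 187 in replicate 3 and no peak over this site in replicate 1.

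The sites of the other complexes had ranks from 5096 to 7742 of 9657, and that of ND-MNLL lay among them at 5778. COX7B of complex IV had an IDR signal of 310 (rank 5893, 3L:17425261-17425432), with 171 in replicate 1 and 145 in replicate 3, opposite Sec3 of the exocyst. COX5A had 365 (rank 5096, 3R:11819381-11819590), with 170 in replicate 3 and no peak in replicate 1, opposite the RNA-binding protein gene glo. ATPsynCF6, the coupling factor of the peripheral stalk of ATP synthase, had 277 (rank 6502, 3R:23356033-23356456), with 176 in replicate 1 and 98.4 in replicate 3. The start of Sec13, a protein of vesicle coats and nuclear pores, was 33 bp from that summit and the start of ATPsynCF6 was 181 bp from it. SdhC, a membrane anchor of succinate dehydrogenase, had 275 (rank 6541, 3R:11209831-11210254), with 134 in replicate 3 and no peak in replicate 1, and its replicate 3 summit lay 192 bp from the IDR-thresholded one. Tctp, the translationally controlled tumour protein gene, lay opposite. ATPsyngamma, the rotating stalk of ATP synthase, had 226 (rank 7742, 3R:29748746-29749169), with 54.3 in replicate 3 and none in replicate 1, opposite yata. Thus 4 of the 12 peaks were overlapped by no replicate 1 peak. This was a much larger share than over the whole list, where 307 of the 9657 IDR-thresholded peaks had none.

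The median signal of the 12 members was 392 in the IDR-thresholded list, against 460 for all 2995 protein-coding genes with a summit. ATPsyngamma, the weakest at 226, was above the lowest signal of the list, 170.2.

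Another protein-coding gene also had a start within 500 bp of each of these 12 summits, and each of the 12 genes had a neighbour transcribed the other way. Over all protein-coding genes with an IDR-thresholded summit, 1465 of 2995 shared it with another protein-coding gene in this sense, 48.9%. At 11 of the 12 the summit was upstream of the nearest start of both genes. The exception was ND-24, whose summit lay 106 bp downstream of its first start, 126 bp upstream of its second start and 148 bp upstream of corolla, a gene of the synaptonemal complex. The count depends on using the nearest start. The COX5A summit lay 117 bp upstream of the nearest start and 123 bp downstream of the other. The ATPsyngamma summit lay 89 bp upstream of the nearest start and 205 bp downstream of the other. The start of the subunit gene was the nearer one in 7 cases and that of the neighbour in 4, and at ND-MNLL the subunit gene and CG45089 were equally near. Peaks of this kind cannot be assigned to the subunit gene alone. Of the opposite neighbours, Fum1 and Cchl encode mitochondrial enzymes.

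**Figure D2:**
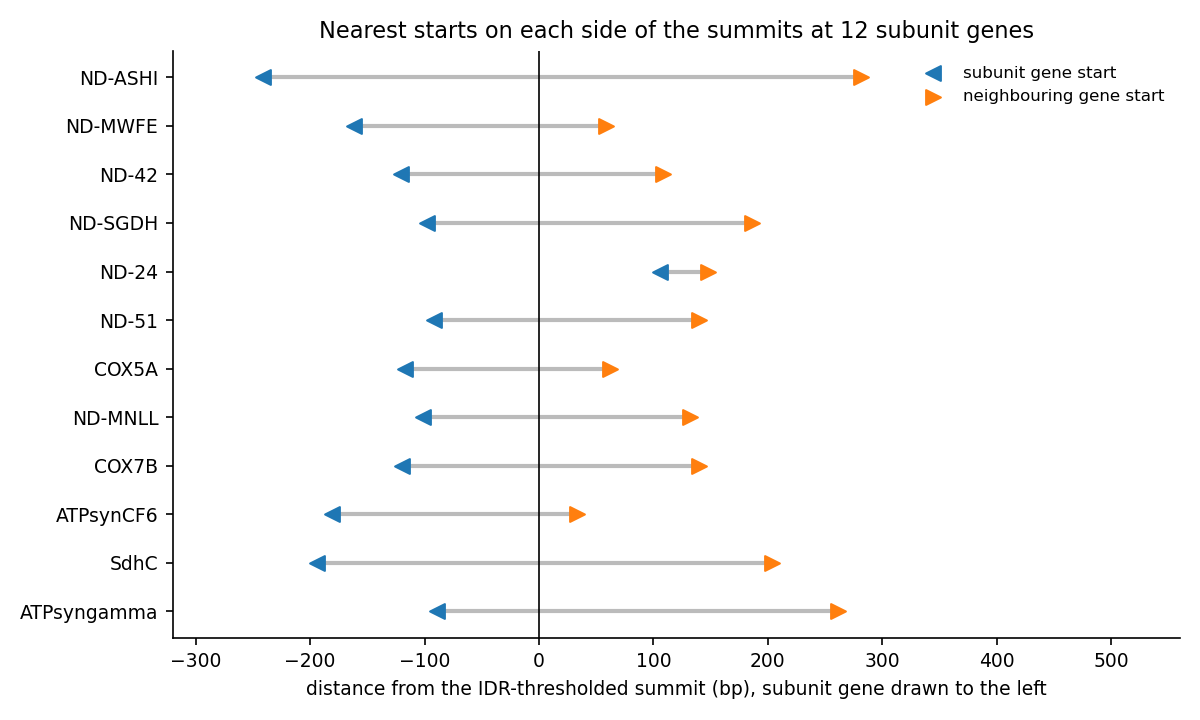
Distance from the IDR-thresholded summit (at 0, in bp) to the nearest start of each of 12 subunit genes (blue, drawn to transcribe to the left) and of its opposite neighbour (orange, transcribed to the right), ordered by signal with ND-ASHI at the top. In 11 pairs the summit lies between the starts, and at ND-24 both starts lie on one side, 106 bp and 148 bp away.

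The presence of such a neighbour was common among somatic subunits. A protein-coding gene transcribed the other way, with its start at most 1000 bp upstream, was annotated for 40 of 63 somatic subunits (63.5%), 4 of 24 L paralogs (16.7%) and 5052 of 13945 protein-coding genes (36.2%). Of the 40 somatic subunits with such a neighbour, 12 had an IDR-thresholded summit, 30.0% (16.6 to 46.5), against 34.0% of all protein-coding genes with one. Of the 23 without, 0 had a summit, against 14.4% of all protein-coding genes without such a neighbour. The exact interval of this 0 reaches 14.8% and so holds the background share, while the rougher limit of 3 counts is 13.0%. In replicate 3, 34 of 40 somatic subunits with such a neighbour had a summit, 85.0% (70.2 to 94.3), against 65.2%. Those without one had a replicate 3 summit in 15 of 23 cases, 65.2% (42.7 to 83.6), against 33.6%. In replicate 1 the shares were 12 of 40 (30.0%) against 39.8%, and 5 of 23 (21.7%) against 26.4%. So the excess over the background in replicate 3 was present in both arrangements, and replicate 1 showed none in either.

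**Figure D3:**
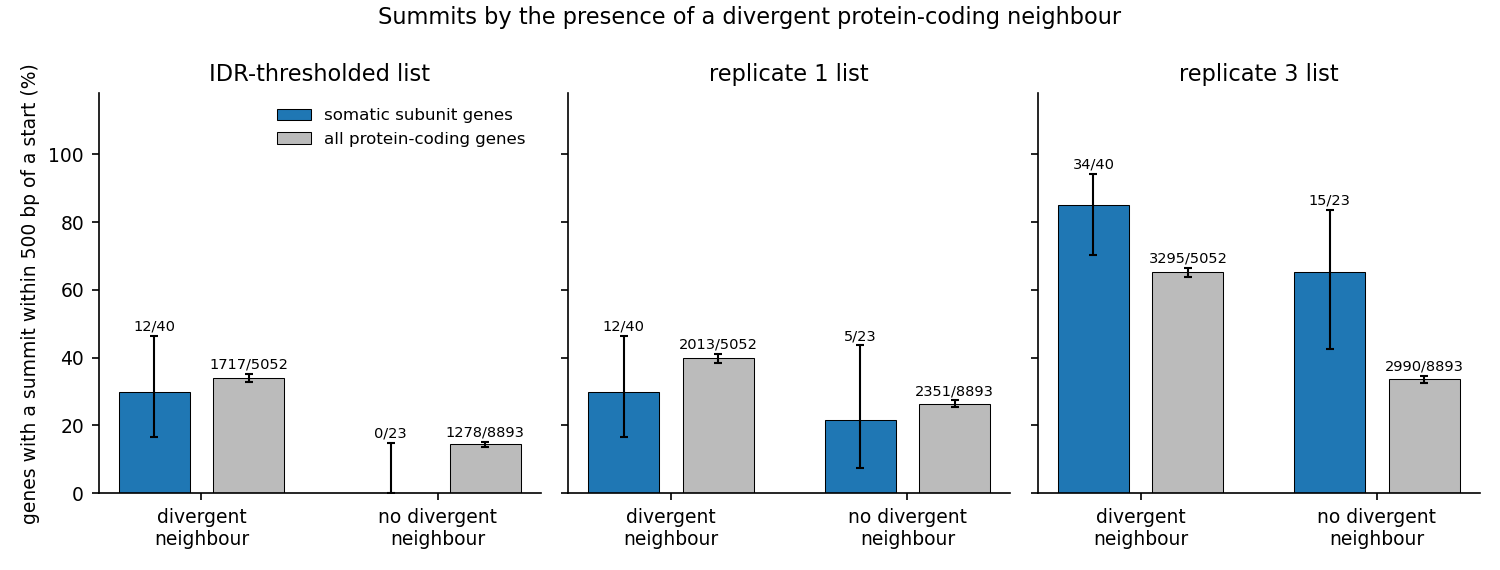
Percentage of genes with a summit within 500 bp of a start among somatic subunits (blue) and all protein-coding genes (grey), split by whether a protein-coding gene transcribed the other way starts within 1000 bp upstream. Whiskers are 95% exact intervals and fractions give the counts. The 0 of 23 in the IDR-thresholded list and the 34 of 40 and 15 of 23 in replicate 3 are the values to compare.

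The smallest distance between opposite starts was also measured in somatic subunits with an IDR-thresholded summit and in those without. Its median was 225 bp in the 12 genes with a summit (20 to 398) and 228 bp in the 28 such genes without one (21 to 983).

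The summits outside the IDR-thresholded list had medians closer to the start than those within it, in both replicates. The median position of the 12 IDR-thresholded summits was −118.5 bp (from −241 to 106), where negative is upstream, against −153 bp for all protein-coding genes with one. In replicate 3 the 51 members with a summit had a median of −33 bp, against −100 bp for all protein-coding genes. Of those 51 members, 31 had their summit within 100 bp of a start, 60.8%, against 38.5%. The 37 somatic subunits with a replicate 3 summit and no IDR-thresholded one had a median of −13 bp, and 26 of them lay within 100 bp. The corresponding median over 3333 protein-coding genes was −46 bp, with 50% within 100 bp. In replicate 1 the 19 members had a median of −98 bp, against −145 bp. The 9 somatic subunits with a replicate 1 summit and no IDR-thresholded one had a median of −41 bp, and 5 of them lay within 100 bp. Over the 1679 such protein-coding genes the median was −92 bp, with 32% within 100 bp.

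**Figure D4:**
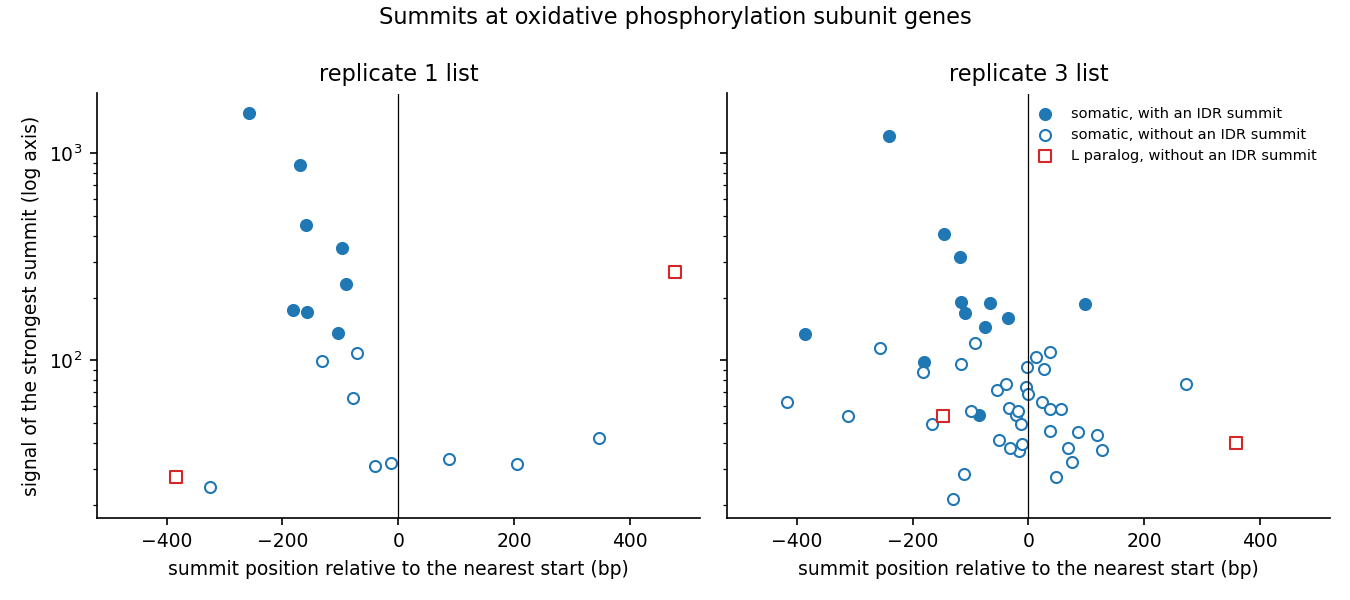
Signal of the strongest summit at each member (log axis) against its position relative to the nearest start in bp, in each replicate list. Filled circles are somatic subunits with an IDR-thresholded summit, open circles are somatic subunits without one and open squares are L paralogs. The filled circles lie mostly upstream of the start in both replicates, and the open circles of replicate 3 gather around the start with signals from 21.5 to 121.

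The replicates differed mainly in weak peaks. A summit was found in both replicates for 17 members (19.3%, against 27.5% of all protein-coding genes), in replicate 3 alone for 34 (38.6%, against 17.5%) and in replicate 1 alone for 2 (2.27%, against 3.76%). The 34 had a median signal of 57.7 and a median rank of 12943.5 in the replicate 3 list of 30000. The 3 highest of them, ND-24 (187), COX5A (170) and SdhC (134), are among the 12 described above. Of the 34 genes, 30 had no IDR-thresholded summit, a share close to the 2140 of 2445 protein-coding genes found in replicate 3 alone.

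Counting only the strongest 9657 peaks of each replicate, somatic subunits had a summit in 10 of 63 cases in replicate 1 (15.9%) and in 19 of 63 in replicate 3 (30.2%). The background shares were then 18.6% and 26.7%. Among the strongest 4000 peaks of replicate 3 the somatic share was 4.76%, against 11.7% of all protein-coding genes. With the strongest 16000 it was 61.9%, against 36.8%. The share among the strongest 4000 rested on 3 of 63 genes. With the strongest 8000 peaks of replicate 3 it was 22.2%, near the background of 22.5%, and with 12000 it was 38.1%, against 31%. No intervals were computed for these shares, so the point where they cross is not fixed. With the strongest 20000 peaks of replicate 3 the somatic share was 73%, against 40.3%, and with 24000 it was 76.2%, against 42.8%. Both differences were wider than that with 16000.

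**Figure D5:**
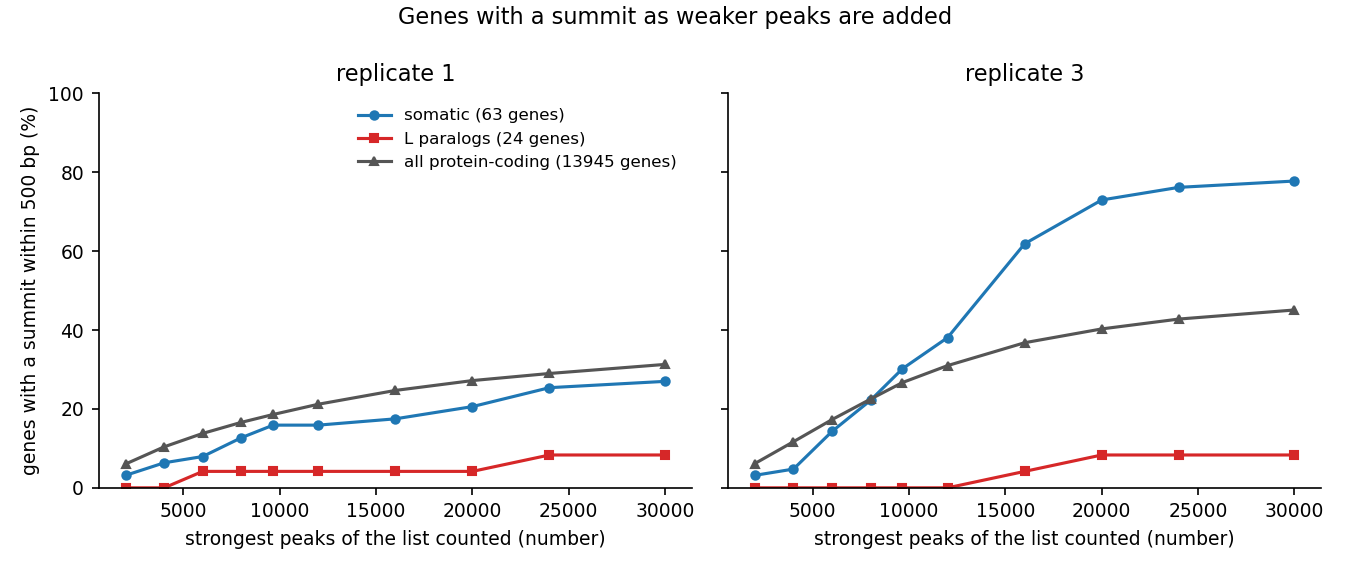
Percentage of somatic subunits (circles), L paralogs (squares) and all protein-coding genes (triangles) with a summit within 500 bp of a start, against the number of strongest peaks counted in each replicate list. In replicate 1 the somatic line stays below that of all genes, ending at 27.0% against 31.3%, and in replicate 3 it crosses above it, ending at 77.8% against 45.1%.

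Several genes for core subunits of complex I were in this weak class of replicate 3. These were ND-23 (signal 121, 92 bp upstream), ND-30 (87.8, 182 bp upstream), ND-20 (72.0, 54 bp upstream) and ND-75 (36.6, 17 bp upstream), all of which belong to the arm that carries the iron-sulphur clusters. ND-49, a further core subunit, had no summit in any list.

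The same class held genes of the other complexes, not all of them for catalytic subunits. Within complex II the flavoprotein gene SdhA had a signal of 49.2 and the membrane anchor gene SdhD one of 45.7. Within complex III the core protein genes UQCR-C2 and UQCR-C1 had 104 (13 bp downstream) and 58.3 (37 bp downstream). COX6B and COX4 of complex IV had 92.8 and 54.6, at 2 bp and 22 bp upstream. In complex V, ATPsynE had 114, ATPsynO, which joins the peripheral stalk to the catalytic head, had 109, and ATPsynG and ATPsynD had 69.1 and 49.5. These signals lay under the 189 of ND-SGDH in the same list. The other somatic subunits found in replicate 3 alone without an IDR-thresholded summit ran from 28.1 at ND-B8 to 96.1 at ND-B17, both accessory subunits of complex I.

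ATPsynbeta, the catalytic subunit of ATP synthase, and ND-49 lie on chromosome 4, a small chromosome with much heterochromatin. ATPsynbeta had a replicate 3 summit of signal 63.2, 416 bp upstream, and none in the other lists. Of the 80 protein-coding genes of chromosome 4, 5 had an IDR-thresholded summit (6.25%) and 30 had one in replicate 3 (37.5%).

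In 9 of the 88 members both replicates held a summit and the IDR-thresholded list held none, against 1193 of 13945 protein-coding genes. They were 9 of the 17 members found in both replicates, against 1193 of 3840. At ATPsynC, which forms the rotor ring, the signal was 99.1 in replicate 1 and 90.3 in replicate 3. ND-AGGG, a small accessory subunit of complex I, had 65.5 in replicate 1 and 21.5 in replicate 3. COX7C of complex IV had 42.0 in replicate 1 and 77.2 in replicate 3. In the pooled list, whose strongest peaks form the IDR-thresholded list down to a signal of 170.2, ATPsynC had 146, COX7C 113 and ND-AGGG 94.3. SdhB, the iron-sulphur subunit of succinate dehydrogenase, had 33.4 in replicate 1 and 27.4 in replicate 3. In ND-B22 the signals were 32.0 in replicate 1 and 74.0 in replicate 3. In COX5B they were 31.5 and 39.2, in ND-B17.2 30.9 and 58.5, and in ND-18 24.3 and 53.7, each for replicate 1 and then replicate 3. Signals of the replicates come from separate lists and were not compared with each other. Each is that of the strongest summit in the window, which need not be the same site in both replicates. In COX5B that summit lay 205 bp downstream in replicate 1 and 11 bp upstream in replicate 3. In ATPsynC it lay 132 bp upstream and 27 bp downstream of the nearest start. At the other members of the 9 both summits lay on the same side of the start. The ninth was the paralog COX7AL2.

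UQCR-11 and the paralog UQCR-6.4L were the members with a replicate 1 summit alone. The signal of UQCR-11 was 109, 72 bp upstream, and its nearest IDR-thresholded summit was 1092268 bp away. UQCR-6.4L had 27.3, 383 bp upstream.

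Of the 24 L paralogs none had an IDR-thresholded summit within 500 bp, against 21.5% of all protein-coding genes. The exact interval of this 0 reaches 14.2%, and the limit of 3 counts is 12.5%. Replicate 1 gave 2 of 24 (8.33%, 1.03 to 27.0) and replicate 3 gave 2 of 24 with the same interval, against 49 of 63 somatic subunits in replicate 3. The intervals of the paralogs and of the somatic subunits in replicate 3 did not overlap. No test was made of this difference, because the members were chosen with earlier results of these data known. The shares over all protein-coding genes were 31.3% in replicate 1 and 45.1% in replicate 3. No neighbour transcribed the other way was annotated for 20 of the 24. Of those 20, 0 had an IDR-thresholded summit. The interval reaches 16.8% and so holds the 14.4% of all protein-coding genes without such a neighbour. The same 20 gave 2 in replicate 1 (10%, 1.23 to 31.7), against 26.4%, and 1 in replicate 3 (5%, 0.127 to 24.9), against 33.6%. Of protein-coding genes with 1 start, as in 21 paralogs, 15.5% had an IDR-thresholded summit. The chromatin came from whole pupae, where a site bound in few cells and a site bound weakly in many cannot be told apart.

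COX7AL2, a paralog of a complex IV subunit, was the nearest to a call. Its signal was 266 in replicate 1 (rank 4201, 478 bp downstream) and 40.0 in replicate 3 (358 bp downstream), and its nearest IDR-thresholded summit lay 518 bp downstream of a start. ATPsynepsilonL had 53.7 in replicate 3, 147 bp upstream, and UQCR-6.4L is described above. The other 21 of the 24 paralogs had no summit in any list, against 50.8% of all protein-coding genes.

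A parent gene with the symbol less its suffix was among the members for 20 paralogs, with 18 distinct parents. Of these 18 parents 16 had a replicate 3 summit, against 1 of the 20 paralogs, which was COX7AL2. In replicate 1 the counts were 6 of 18 and 2 of 20, and in the IDR-thresholded list 4 of 18 and 0 of 20. ND-24, ND-51, SdhC and ATPsynCF6 were the 4 parents. ND-24L lay 24287 bp from the nearest IDR-thresholded summit, ND-51L1 18606 bp, ND-51L2 7179 bp, SdhCL 23091 bp and ATPsynCF6L 12080 bp.

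For the other paralogs the distances ran from 2396 bp at ND-20L to 336073 bp at COX4L. SdhBL lay 3576 bp away, COX5BL 2754 bp, UQCR-14L 3651 bp, COX7CL 3962 bp, UQCR-11L 6077 bp, COX7AL 6340 bp, ATPsynGL 7492 bp and ATPsynbetaL 7902 bp. COX6AL, COX6AL2, SdhAL, ND-49L, COX6CL and ND-B14.5AL lay between 13501 and 58944 bp away. The median was 10299.5 bp over all 24 paralogs, against 4041 bp over the somatic subunits and 5157 bp over all protein-coding genes.

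Just outside the window, 6 members had their nearest IDR-thresholded summit between 500 and 1000 bp from a start. These were COX7AL2 (518 bp), ND-75 (760 bp upstream), ATPsynE (779 bp downstream), ATPsynD (785 bp upstream), UQCR-14 (855 bp upstream) and ND-39 (917 bp upstream). Just inside it, the largest distance was the 241 bp of ND-ASHI, so no member lay between 241 and 518 bp.

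Motifs were searched on both strands in the 101 bases around the 12 summits. The nuclear respiratory gene element, in its forms TTACATAA, TTACGTAA and TTATATAA with their reverse complements, was found at ND-42, ND-SGDH and ND-MNLL, in 3 of 12 windows (25.0%). It was found in 101 of 2995 windows of protein-coding genes with an IDR-thresholded summit (3.37%) and in 277 of 9657 IDR-thresholded windows (2.87%). The form at ND-42 and ND-SGDH overlaps in its letters with a TATA-like word. The 12 windows had a median GC content of 24.8%, against 29.7% for all protein-coding genes with a summit, and the part of this in the motif share was not tested.

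In the 300 bases from 250 before to 50 after the most upstream start, the element was present in 5 of 63 somatic subunits (7.94%), in 0 of 24 L paralogs and in 5.18% of all protein-coding genes. The core of Ohler motif 1, GGTCACAC, a promoter element of widely used fly genes, was in 15 of 63 somatic promoters (23.8%), in 1 of 24 L paralogs and in 7.70% of all promoters. The core of Ohler motif 7, CANCNCTA, was in 25.4% of somatic promoters, in 0 of 24 L paralogs and in 15.6% of all. The element DRE, TATCGATA, was in 14.3% of somatic promoters and 9.36% of all, and the word CAGCTG was in 30.2% and 17.7%. The word GAGAG was in 15.9% of somatic promoters, in 41.7% of the L paralogs and in 29.7% of all.

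At the summits themselves these promoter words were rare. None of the 12 windows held DRE, the motif 1 core, the word CAGCTG, the word GAGAG, the word GATAAG, the E-box CACGTG or the ewg core GCGCATGC, and the motif 7 core was in 1, that of ND-MWFE. Over all protein-coding genes with an IDR-thresholded summit, the window shares ran from 0.134% for the ewg core to 9.98% for GAGAG, with 3.87% for the motif 7 core. With shares this low, few matches in 12 windows are unremarkable. In the 300-base promoters of the same 12 genes the motif 7 core was in 5, CAGCTG and GATAAG in 4 each and the motif 1 core in 3. DRE and GAGAG were in 1 each, and the E-box and the ewg core in 0.

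Subunits and carriers of the chain that bear other names gave 3 of 9 with an IDR-thresholded summit (33.3%, against 21.5% of all protein-coding genes), 5 in replicate 1 (55.6%, against 31.3%) and 8 in replicate 3 (88.9%, against 45.1%). The 3 were blw, the alpha subunit of ATP synthase (694, 205 bp upstream), levy of complex IV (288, 139 bp upstream) and the cytochrome c gene Cyt-c-d (2474, 391 bp downstream). The signal of blw was 435 in replicate 1 and 263 in replicate 3. Cyt-c1, the haem subunit of complex III, and RFeSP, its iron-sulphur subunit, had weak replicate 3 summits of 20.0 and 53.2.

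Of 17 citric acid cycle and pyruvate dehydrogenase genes, 4 had an IDR-thresholded summit (23.5%, near the 21.5% of all protein-coding genes), 7 a replicate 1 summit (41.2%, against 31.3%) and 14 a replicate 3 summit (82.4%, against 45.1%). The 4 were Fum1, at the site shared with ND-ASHI, Idh3g, a subunit of isocitrate dehydrogenase (2545, 101 bp upstream), kdn, the citrate synthase (240, 202 bp downstream) and muc of the pyruvate dehydrogenase complex (212, 321 bp upstream). Of 14 genes for the transcription, copying and control of mitochondrial genes, 2 had an IDR-thresholded summit (14.3%, against 21.5%), ERR (902, 172 bp upstream) and Dref (427, 6 bp downstream). Replicate 1 gave 5 of these 14 (35.7%, against 31.3%) and replicate 3 gave 9 (64.3%, against 45.1%). ERR is a nuclear receptor of metabolic genes and Dref the factor that binds DRE, and srl and ewg had no summit in any list.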

How the data were processed

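Peak lists of anti-GFP ChIP-seq from 2 biological replicates of whole pupae were analysed. The deposited README files state that peaks were called on dm6 for replicate 1, replicate 3 and both pooled, each against the same control, and the IDR-thresholded list was derived from them. The sources used here do not give the caller, the aligner, their versions or thresholds. The deposited signal comes from the peak caller and was compared within a list only. The deposited −log10 q-values are saturated (all 9657 IDR-thresholded peaks share 1 value), so peaks were ranked by signal. The IDR-thresholded list was identical to the 9657 strongest pooled peaks.

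Genes came from Ensembl release 115 and sequence from RefSeq Release 6, where 88 of 88 members had the same coordinates. The authors' summit (start plus column 10) was used, counted from 1. Where several summits lay within 500 bp of a start, the strongest was described. Counts, medians and exact intervals (95%, Python 3.11.15, scipy 1.17.1) were computed, with no test. The window search was tested on planted summits.

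The members, lists and motifs were chosen with earlier results of these data known. In the lists of other genes, 2 written names matched no gene. Named by rule were members with an IDR-thresholded summit, with a summit in both replicates, just outside the window, L paralogs, and the 3 strongest found in 1 replicate. Other members found in replicate 3 alone, and genes of the other lists, were named after their values were seen.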

Additional observations from a re-analysis of the deposited data

How the results depend on the processing

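The count of 12 members with a summit, the counts by complex and by class, the shared summits and the summit position were recomputed under 10 alternatives. Of the 110 values, 69 stayed within 1.5 times the main count (for the position, within 1 SD of the replicate medians, 46 bp). The count for the assembly factor, a single gene with no summit in any list, was 0 in every alternative. It adds to the 69 without being informative, and the somatic count largely repeats that of all members. The list of weaker peaks changed the counts most. Without replicate 1 (the list of replicate 3 alone) there were 51 members, 49 of them somatic and 2 L paralogs, with 25, 4, 4, 8 and 10 for complexes I to V. Their median position was −33 bp. Of their summits 33 were shared with another protein-coding gene (64.7%, against 43.6% of all protein-coding genes with a summit). Without replicate 3 there were 19 members, 17 somatic and 2 L paralogs, with 10, 1, 2, 4 and 2 by complex. Their median was −98 bp, with 11 shared summits (57.9%, against 38.3%). The pooled list gave 27 members, 26 somatic and 1 L paralog, with 12, 3, 2, 5 and 5 by complex. Their median was −49 bp, with 19 shared summits (70.4%, against 40.3%). The 4828 IDR-thresholded peaks of higher signal gave 6 members, all somatic, all shared and all of complex I, with 0 for complexes II, III, IV and V, against 12.6% of all protein-coding genes. A window of 1000 bp gave 18 of 88 members, against 25.8% of all protein-coding genes. They held 1 L paralog, 1 member of complex III and 4 of complex V. Counting a gene when any base of a peak was near it gave 13 of 88 members, against 23.2%, and 1 of them was an L paralog. Chosen after seeing the data, the strongest 9657 peaks of replicate 1 gave 11 of 88 members, against 18.6% of all protein-coding genes. They held 1 L paralog, 0 members of complex II and 1 of complex III. The strongest 9657 peaks of replicate 3 gave 19 of 88 members, against 26.7%. All 19 were somatic, with 1 of complex III and 4 of complex V. The cause of these differences was not tested. No paired analysis was possible because there was 1 group. The unknown depth and the limit of 30000 peaks a list set which weak sites could appear.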
